A study of Mus musculus with 22 samples.

Results

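Of the 16370 chromatin loops called in this Hi-C time course, 3521 fitted none of the study's classes of loop, and 1116 of those had both anchors away from every CTCF loop anchor. These 1116 loops, called away loops here, were 31.7% of the uncategorised loops and 6.82% of all loops. Among the uncategorised loops they were chosen by the position of their anchors. Neither anchor midpoint lay within 20 kb of an anchor midpoint of a structural or dual-function loop on the same chromosome. The other uncategorised loops had 1 such anchor (1651 loops) or 2 (754 loops). A loop was uncategorised when CTCF with cohesin marked at most 1 anchor and an active regulatory element marked at most 1 anchor. A structural loop had CTCF and cohesin at both anchors, a CRE loop had cis-regulatory elements (promoters or enhancers) at both, and a dual-function loop had both features at both anchors. A loop was called as a pixel of enriched contacts between 2 anchors, and the away loops had 723 summits called in bins of 10 kb and 393 in bins of 25 kb.

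A chromatin loop brings 2 distant stretches of DNA close together in the nucleus. The best known kind forms when the ring-shaped cohesin complex extrudes DNA until it stops at CTCF, a zinc finger protein bound to its motif in convergent orientation. Other loops join active enhancers and promoters and need CTCF less. In mitosis CTCF and cohesin largely leave the condensed chromosomes and loops are lost, and they are built again as cells enter G1.

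The cells were G1E-ER4, a mouse erythroblast line derived from the GATA1-null line G1E, with both CTCF alleles fused to an auxin-inducible degron and mCherry. All groups carried this fusion and a retroviral TIR protein, which lets auxin trigger the breakdown of CTCF, and all were arrested with nocodazole and sorted by fluorescence. For each of 4 stages there was an untreated and an auxin-treated group: prometaphase (0 min after release), ana/telophase (30 min), early-G1 (60 min) and mid-G1 (120 min), with 2 libraries each for the first 3 stages and 3 each for mid-G1. Ana/telophase cells carried a mitotic degron fused to GFP for sorting, which the other stages did not. In the tables used here the 18 libraries are merged to 1 contact map per group, so each loop had 1 value in each of 8 maps. Values of single replicates were not analysed here, so there is no replicate error and no test between treatments. The contacts behind a loop are not in the tables used here, so the depth of a single value is unknown. Spread is therefore shown as the SD of per-chromosome medians, taken over chromosomes with at least 10 of the loops, and a share carries its 95% interval by Wilson's method, for counting error alone. Loops are not replicates of a condition. The maps that gave the strengths also gave the calls, so strengths of call classes are descriptions.

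Some away loops joined stretches of DNA that share sequence. At least 1 word of 50 bases was common to both anchors in 31.9% of away loops, 20.6% of all loops and 21.6% of CRE loops away from CTCF loop anchors, so the size of the contrast depends on the limit set. In 109 of 1116 away loops (9.77%, interval 8.16 to 11.6%) at least 1% of the 50-base words of the upstream anchor occurred again in the downstream anchor on either strand. Among the 15254 other loops the share was 0.439% (67 loops). The reference was not masked for repeats, so dispersed repeats and gene duplicates count alike. The words lay mainly on the same strand in 73 of the 109 loops and on opposite strands in 36. Windows of 150 bases from the anchors of 3 such loops, among the strongest in untreated mid-G1 and at separate places, show how alike the ends of a loop can be. Each window was taken along the alignment with the most shared words and had to hold at least 1 difference. Capitals mark the bases that differ between the anchors, and all letters are from the mm9 reference on the strand given:
Gm1979 and Gm7361, upstream anchor, chr5:26337084-26337233, plus strand: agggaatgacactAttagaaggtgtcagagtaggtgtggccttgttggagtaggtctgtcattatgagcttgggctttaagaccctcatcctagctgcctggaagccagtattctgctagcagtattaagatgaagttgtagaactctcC
Gm1979 and Gm7361, downstream anchor, chr5:26596506-26596655, minus strand: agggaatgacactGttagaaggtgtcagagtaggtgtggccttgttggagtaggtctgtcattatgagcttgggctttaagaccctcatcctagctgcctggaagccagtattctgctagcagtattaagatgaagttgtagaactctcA
chromosome 12 pair, upstream anchor, chr12:19481845-19481994, plus strand: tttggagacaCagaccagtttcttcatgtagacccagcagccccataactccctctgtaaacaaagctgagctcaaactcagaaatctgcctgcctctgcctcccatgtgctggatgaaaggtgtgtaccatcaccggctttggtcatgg
chromosome 12 pair, downstream anchor, chr12:20055471-20055620, plus strand: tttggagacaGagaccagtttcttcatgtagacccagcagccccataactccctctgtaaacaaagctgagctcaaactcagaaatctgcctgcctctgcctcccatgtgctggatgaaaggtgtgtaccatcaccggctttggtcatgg
Vmn2r39 and Vmn2r51, upstream anchor, chr7:9126521-9126670, plus strand: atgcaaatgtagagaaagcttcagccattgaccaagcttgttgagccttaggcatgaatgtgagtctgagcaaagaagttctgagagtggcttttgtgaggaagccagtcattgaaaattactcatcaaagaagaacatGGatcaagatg
Vmn2r39 and Vmn2r51, downstream anchor, chr7:10659000-10659149, minus strand: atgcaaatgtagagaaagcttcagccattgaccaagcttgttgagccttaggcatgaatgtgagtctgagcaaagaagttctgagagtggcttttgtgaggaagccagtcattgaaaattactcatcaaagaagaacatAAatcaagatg

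The first pair joined the start of Gm1979 to an exon of Gm7361 on chromosome 5, and its windows matched at 148 of 150 bases over a distance of 259 kb. The second, on chromosome 12, matched at 149 of 150 bases 574 kb apart, and 56.1% of the words of its upstream anchor recurred in the downstream anchor. The third joined the start of Vmn2r39 to an exon of Vmn2r51, a pair of vomeronasal receptor genes for pheromone sensing, and matched at 148 of 150 bases on opposite strands 1532 kb apart. All 3 loops had been called in both treatments. Their strength in untreated mid-G1, the ratio of observed contacts to those expected from the local surroundings, was 9.60, 8.70 and 8.39. With auxin it was 7.05, 5.99 and 10.7. The third loop was uneven from stage to stage, at 0.613, 2.89, 1.48 and 8.39 from prometaphase to mid-G1 without auxin and 0.251, 1.06, 2.37 and 10.7 with it.

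The away loops gained strength after mitosis in both treatments. In untreated cells their median strength climbed over the 4 stages from 1.09 to 1.38, 1.56 and 1.66. With auxin it was 1.07, 1.30, 1.43 and 1.45. The quartiles of the treatments overlapped at every stage: in mid-G1 they ran from 1.35 to 2.19 without auxin and from 1.20 to 1.88 with it. The median rise from prometaphase to mid-G1 was 0.55 on the log2 scale without auxin and 0.43 with it (SD over 20 chromosomes 0.11 and 0.10). Of the rise in mean strength, 45.7% had been reached by ana/telophase and 76.8% by early-G1 without auxin, and 50.1% and 85.4% with it.

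**Figure D1:**
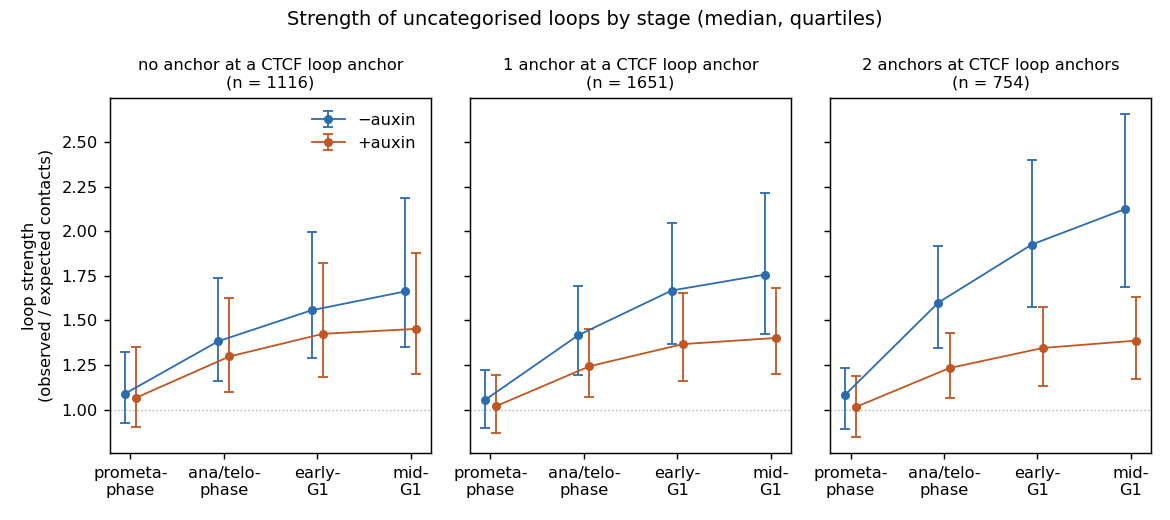
Loop strength (observed over locally expected contacts, y axis) of uncategorised loops by stage (x axis) in untreated (blue) and auxin-treated (orange) cells, with medians as points and quartiles as bars. In the 1116 away loops the mid-G1 medians were 1.66 and 1.45, and the gap between treatments was wider in loops with 1 or 2 anchors at a CTCF loop anchor.

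With auxin the away loops changed by a median of -0.01, -0.06, -0.09 and -0.13 on the log2 scale from prometaphase to mid-G1 (SD over 20 chromosomes 0.05, 0.05, 0.07 and 0.08). It was below 0 on 13, 18, 19 and 20 of the 20 chromosomes in that order. In mid-G1 the single-chromosome medians of autosomes lay between -0.22 and -0.04. These changes are on the scale of the deposited ratios. Set against the median of all loops at each stage (-0.38 in mid-G1), the away loops lay higher instead, at 0.25 in mid-G1, 0.22 in early-G1 and 0.15 in ana/telophase. Single loops scattered by as much in prometaphase as later. The SD of the log2 change over the away loops was 0.44, 0.31, 0.36 and 0.40 from the first stage to the last, so a change of 1 loop at 1 stage lies within this scatter unless it is large.

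In mid-G1, 171 of 1115 away loops with a value in both treatments (15.3%, interval 13.3 to 17.6%) were weaker with auxin by at least 0.5 on the log2 scale, and 35 (3.14%, interval 2.27 to 4.33%) were stronger by as much. Over all loops these shares were 42.0% and 4.06%. Centred on the median of all loops, the balance of the away loops turned, with 4.93% weaker and 20.6% stronger by that amount. In ana/telophase 80 away loops were weaker by that amount and 25 stronger, where the shares over all loops were 25.4% and 1.61%. In early-G1 there were 120 and 49, against 36.5% and 3.84% of all loops. In prometaphase 112 were weaker and 102 stronger, 10.0% and 9.14% of the away loops against 12.9% and 9.05% of all loops.

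The mid-G1 change was graded by how many anchors lay at a CTCF loop anchor. Uncategorised loops with 1 such anchor had a median of -0.30 (SD over chromosomes 0.06), and those with 2 had -0.62 (SD 0.13). The away loops lay above the first group by 0.18 and above the second by 0.50. The away median was higher on 20 of 20 chromosomes than that of loops with 1 such anchor, by 0.01 to 0.31. It was higher on 19 of 19 than that of loops with 2, by 0.25 to 0.76. The CRE loops away from CTCF loop anchors (1318 loops) had a median of 0.04, and the away loops lay below it on 18 of 20 chromosomes. These differences were not tested, since the tables used here give 1 merged value per group.

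The change varied with distance mostly inside the limit that chose the loops and little across it. The nearer anchor of the away loops lay 22.5 kb to 10790 kb from a CTCF loop anchor, with a median of 67.5 kb. Uncategorised loops with the nearer anchor within 5 kb had a mid-G1 median of -0.45, those at 5 to 10 kb -0.38 and those at 10 to 15 kb -0.23. At 15 to 20 kb, just outside the group, it was -0.25 (350 loops). Just inside it, at 20 to 25 kb, the median was -0.22 (101 loops). It was -0.17 at 25 to 30 kb and -0.09 at 30 to 50 kb. Farther away the medians were -0.13, -0.10, -0.08 and, beyond 500 kb, -0.10, which is within the spread between chromosomes. So the away loops nearest the limit resembled their neighbours outside it. The share whose anchors share sequence rose over the same distances, from 2.97% at 20 to 25 kb to 16.4% at 100 to 200 kb and 24.2% beyond 500 kb.

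**Figure D2:**
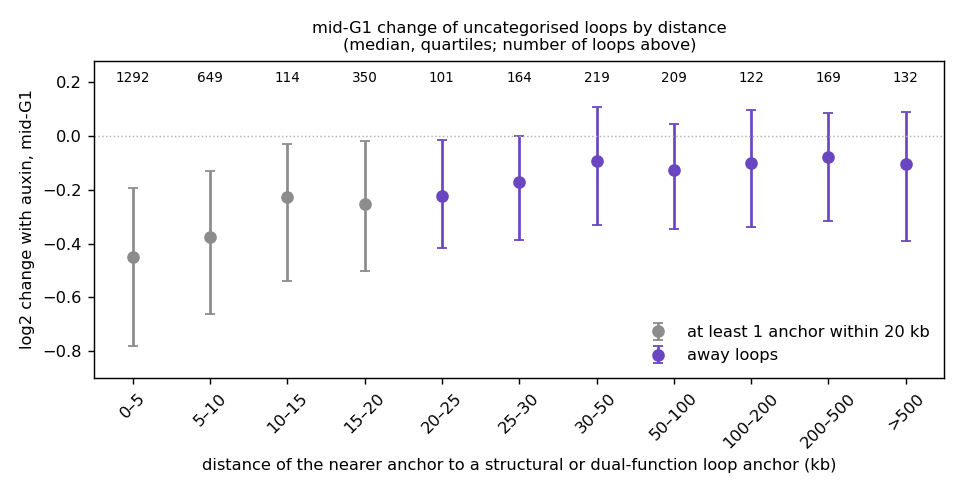
Median log2 change with auxin in mid-G1 (y axis, bars to the quartiles) of all uncategorised loops in bins of the distance from the nearer anchor to a CTCF loop anchor (x axis, kb), with the number of loops above. The median went from -0.45 within 5 kb to -0.22 at 20 to 25 kb, and from 30 kb on it lay between -0.13 and -0.08.

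By the study's calls, 737 away loops (66.0%, interval 63.2 to 68.8%) had been detected in untreated cells only, 175 (15.7%, interval 13.7 to 17.9%) in both treatments and 204 (18.3%, interval 16.1 to 20.7%) in auxin-treated cells only. Over all loops these shares were 71.1%, 14.4% and 14.6%. Of the 912 away loops detected without auxin, 19.2% (interval 16.8 to 21.9%) were detected with it too. Over all loops this share was 16.8%. It was 9.30% of uncategorised loops with 1 CTCF loop anchor, 4.45% of those with 2, 22.4% of dual-function loops and 39.8% of the CRE loops away from CTCF loop anchors. Calls and strengths gave different pictures. Taking a strength of at least 1.5 in some post-mitotic map as presence, 826 away loops were present, 67.1% of them in both treatments and 26.5% in untreated cells only. Of the 912 loops called without auxin, 1 was first called in prometaphase, 146 at the next stage, 272 at early-G1 and 493 at mid-G1. The last 3 were 16.0%, 29.8% and 54.1% of these 912 loops, against 20.7%, 40.0% and 39.3% of all 13984 loops called without auxin. Of the 379 called with auxin the numbers were 8, 94, 150 and 127, the last 3 being 24.8%, 39.6% and 33.5% of the 379, against 27.3%, 53.1% and 19.2% of all 4736 loops called with auxin.

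Strength followed the call class in a graded way. Loops called in untreated cells only had median strengths of 1.04, 1.34, 1.55 and 1.68 over the 4 stages without auxin and 1.03, 1.23, 1.31 and 1.37 with it. Loops called in both treatments had 1.49, 1.83, 2.03 and 2.11 without auxin and 1.62, 1.81, 2.14 and 2.26 with it, and so were already above the others in prometaphase. Loops called only with auxin had 1.11, 1.32, 1.37 and 1.37 without it and 1.11, 1.35, 1.52 and 1.54 with it. The loops called only with auxin thus had a median mid-G1 change of 0.14, smaller in size than the -0.24 of those called in untreated cells only, and with values in untreated cells that also rose after mitosis. Away loops first called in ana/telophase without auxin had a median change of -0.02 in mid-G1, and those first called in mid-G1 had -0.26.

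**Figure D3:**
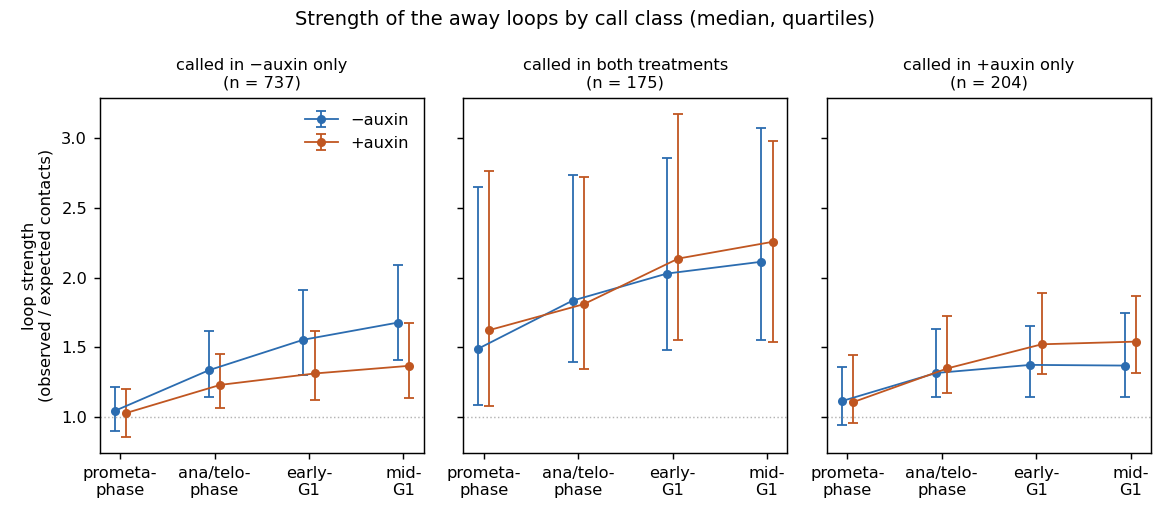
Strength of the away loops (observed over locally expected contacts, y axis) by stage (x axis), split by the treatments in which they had been called, with medians as points and quartiles as bars (blue untreated, orange auxin-treated). Loops called in both treatments began at medians of 1.49 and 1.62 in prometaphase, when the other classes were at 1.03 to 1.11.

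An unusual group of away loops was strong in mitosis, when loops are largely lost. In 107 away loops (9.59%, interval 8.00 to 11.5%) the strength was at least 2 in prometaphase in both treatments, against 1.23% of all loops (201 loops) and 0.616% of the 15254 other loops. The away loops thus held 53.2% of all loops of this kind while being 6.82% of all loops. Their median strengths were 3.11, 3.05, 3.23 and 3.50 without auxin and 3.05, 3.20, 3.48 and 3.52 with it, close to flat from prometaphase to mid-G1 in both. Of the 107, 58 (54.2%) had been called in both treatments, against 15.7% of all away loops and 14.4% of all loops. A 10 kb summit was found in 106 of them. The study's methods describe false-positive calls from very high outlier pixels, usually seen at every stage with and without auxin. Pixels called in nearly all maps were removed for this reason in the first pass. The pixels strongest in untreated prometaphase were removed only among candidates recovered later. Whether the 107 loops include such false positives was not tested.

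The mitotic strength went with shared sequence. Of the 107 loops strong in prometaphase, 35 had anchors that share sequence (32.7%, interval 24.6 to 42.1%), against 74 of the other 1009 away loops (7.33%, interval 5.88 to 9.11%). The direction was the same among all other loops, with 6 of 94 (6.38%) against 61 of 15160 (0.402%). In the away loops the share climbed with the lower of both prometaphase strengths: 4.61% under 1, 9.68% from 1 to 1.5, 21.7% from 1.5 to 2, 29.5% from 2 to 3 and 37.0% at 3 or more. The 109 loops with shared sequence had median strengths of 1.51, 1.65, 1.78 and 2.01 without auxin and 1.67, 1.62, 1.71 and 2.09 with it. Their median mid-G1 change was 0.09, against -0.15 for the 1007 loops without it. The 72 loops strong in prometaphase whose anchors do not share sequence had medians of 3.06 in prometaphase and 3.37 in mid-G1 without auxin, and 2.97 and 3.40 with it. How far reads in near-identical anchors were assigned to the wrong copy was not tested. Without the 107 loops strong in prometaphase, and likewise without the 109 loops that share sequence, the median mid-G1 change of the away loops was -0.15.

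**Figure D4:**
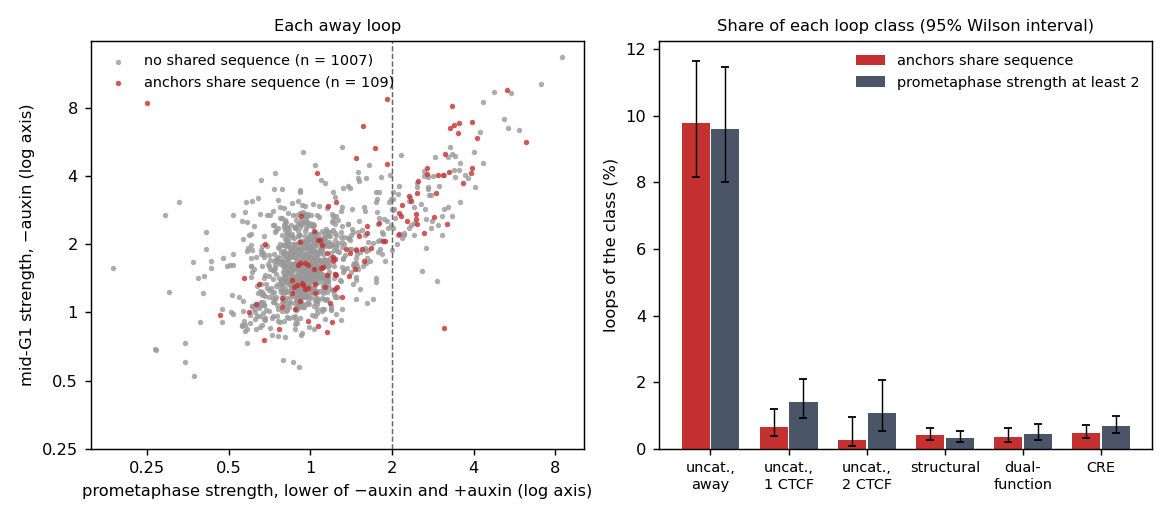
Left, prometaphase strength (the lower of both treatments, x axis) against untreated mid-G1 strength (y axis) of each away loop, both on log axes, with the 109 loops whose anchors share sequence in red and the limit of 2 dashed. Right, the percentage of loops in each class whose anchors share sequence (red) or whose prometaphase strength is at least 2 in both treatments (dark grey), with 95% Wilson intervals: 9.77% and 9.59% for the away loops, and at most 1.39% for every other class.

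Some of these loops lay close together. Joining away loops whose spans lay within 200 kb of each other gave 617 neighbourhoods, of which 387 held 1 loop and 23 held at least 6. Of these 23, 15 held at most 1 loop that shares sequence and at most 1 strong in prometaphase, and 9 of them held none of either. The other 8 held at least 2 of each, and all 8 are described, chosen after their values were seen. The fullest, at chr1:174750001-176240000, held 15 loops over 35 protein-coding genes, 16 of them olfactory receptor genes. Another 4 had Ifi names (Ifi202b, Ifi203, Ifi204, Ifi205) and belong to the interferon-inducible Ifi200 family, which includes sensors of DNA. There 9 loops were strong in prometaphase and 6 shared sequence, and the median strength was 2.11 in untreated prometaphase, 2.53 in untreated mid-G1 and 2.35 in auxin-treated mid-G1. The next, at chr12:115920001-117250000, held 12 loops over 55 immunoglobulin heavy chain variable segments, the gene parts that are joined to make antibodies in B cells. Its medians were 1.90, 2.17 and 2.09 in the same order. At chr4:144950001-147000000, 12 loops spanned 19 protein-coding genes, among them Zfp600 and Rex2, and 47 pseudogenes, with medians of 1.34, 1.44 and 1.35.

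At chr8:19240001-20040000, over the antimicrobial beta-defensin genes Defb46, Defb5, Defb3, Defb8 and Defb7, 5 of 6 loops were strong in prometaphase, with medians of 3.60, 4.20 and 4.84. At chr10:21890001-22300000, over H60b, Raet1c and Raet1d, which code for ligands of an activating receptor of natural killer cells, 4 of 6 were, with medians of 2.98, 4.47 and 4.77. At chr3:15320001-15760000, over the signal-regulatory protein genes Sirpb1a, Sirpb1b and Sirpb1c, 5 of 6 loops shared sequence, with medians of 1.66, 2.87 and 2.89. In these 3 clusters the auxin-treated mid-G1 median was no lower than the untreated one. The same held at chr13:99725001-101410000, over the Naip genes, sensors of bacterial proteins, and others, where 4 of 7 loops shared sequence, with medians of 1.64, 2.44 and 2.49. The cluster at chr5:14870001-15800000, with 3 Speer genes, went the other way. There 4 of 7 loops shared sequence and 2 were strong in prometaphase, the medians were 1.61, 1.84 and 1.25, and the median change was -0.31. Among the other 15 neighbourhoods, the lowest median change was at chr1:127290001-130175000 (-0.94). Its 8 loops over 14 protein-coding genes from Actr3 to Ubxn4 had a median of 1.30 in untreated prometaphase, 2.20 in untreated mid-G1 and 1.11 in auxin-treated mid-G1. None of these was strong in prometaphase, 1 shared sequence, and 7 had been called in untreated cells only, as were 71.1% of all loops.

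The strongest away loop in untreated mid-G1 lay in the Ifi200 neighbourhood, between chr1:175210001-175220000 and chr1:176230001-176240000, both free of protein-coding genes. Its strength over the 4 stages was 10.5, 11.8, 11.4 and 13.3 without auxin, and 8.44, 11.5, 11.9 and 13.0 with it. It was listed as called in untreated cells only although its values in the treatments were alike. The second, between chr4:143210001-143220000 and an exon of Pramef6 at chr4:143480001-143490000, had 8.89, 7.21, 7.55 and 10.2 without auxin and 7.06, 6.67, 8.02 and 7.34 with it. Another of the 5 strongest joined its neighbours Gm13023 and C87977 (6.01, 4.59, 5.97 and 9.36 without auxin, 4.77, 5.19, 7.20 and 8.30 with it). The remaining ones of the 5 were the Gm1979 and Gm7361 loop shown above and a 680 kb loop on chromosome 8 between chr8:73670001-73680000 and chr8:74350001-74360000. Of the 5, the Gm1979 and Gm7361 loop alone passed the 1% limit for shared sequence (4.81%), while the Pramef6 loop had 0.201% and the other 3 had 0. All 5 had a prometaphase strength of at least 4.77 in both treatments.

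Among loops called in both treatments, those with the highest lowest value over the 6 post-mitotic maps were of the same sort. A 1020 kb loop ending in an exon of 5031410I06Rik at chr5:26420001-26430000 had 4.80, 7.90, 10.1 and 8.49 without auxin and 4.34, 6.84, 7.30 and 10.6 with it. A 90 kb loop between chr6:145950001-145960000 and chr6:146040001-146050000 had 5.33, 5.48, 5.31 and 6.49 without auxin and 5.78, 5.72, 6.38 and 6.29 with it. Within Myo3a, which codes for a motor protein of sensory hair cells, a 90 kb loop from an intron to an exon had 4.24, 5.88, 5.95 and 6.24 without auxin and 4.91, 5.26, 5.27 and 6.70 with it. The anchors of these 3 loops shared no 50-base word. None of the 5 loops changed by more than 0.47 on the log2 scale at a post-mitotic stage.

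The away loops that fell most had another course. The loop from an exon of Rasgrf2, a Ras activator, to an intron of Msh3, a mismatch repair gene, spanned 1050 kb between chr13:92050001-92060000 and chr13:93100001-93110000. Its strength went from 1.403 in prometaphase to 2.14, 3.17 and 3.54 without auxin, and was 1.94, 0.707, 1.07 and 0.839 with it. The mid-G1 change was -2.07, with -1.60 and -1.57 at the stages before. On the X chromosome, a loop ending in an intron of Iqsec2, a regulator of synapses, had 0.559, 1.11, 1.94 and 3.06 without auxin and 0.329, 0.435, 0.710 and 0.816 with it. Another on X, between exons of Mid1, a ubiquitin ligase gene, had 1.499, 2.01, 4.37 and 3.93 without auxin and 2.16, 0.995, 1.62 and 1.16 with it. The loop from Mypn to Sirt1, a deacetylase gene, had 0.929, 1.70, 2.54 and 2.97 against 2.12, 0.772, 1.26 and 1.24. That from Mcf2l to Adprhl1 had 1.18, 1.42, 1.69 and 2.05 against 1.14, 0.757, 0.751 and 0.625. In all 5 the untreated value rose at each stage from prometaphase to early-G1 and the treated value lay below it at all 3 post-mitotic stages. They were named for falling most at all 3 of these stages, so these values are a description.

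The core letters of the CTCF motif, CC, any 3 bases and then AGGGGGC, on either strand, occurred at the anchors of some of these loops, which is shown because the rule kept only called CTCF loops away. They stood in 1 anchor each of the Iqsec2 and Mcf2l loops and, among the loops most gained with auxin, of the Birc2 and Yap1 loop. The windows of 30 bases are mm9 reference letters on the strand of the motif, with the motif in capitals:
Birc2 loop, upstream anchor, chr9:7848250-7848279, minus strand: ccaccactgCCTGGAGGGGGCagctcttat
Iqsec2 loop, downstream anchor, chrX:148586450-148586479, minus strand: cgcatttcgCCTCTAGGGGGCagggaagta
Mcf2l loop, upstream anchor, chr8:12997663-12997692, plus strand: tgggtgtgcCCTGTAGGGGGCcgggcagct

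Of all 2232 away anchors 9.72% held these letters (interval 8.56 to 11.0%), against 19.1% of structural and 21.2% of dual-function loop anchors, 12.7% and 12.9% of those of uncategorised loops with 1 and 2 CTCF loop anchors, and 16.1% of all loop anchors. The CRE loops away from CTCF loop anchors had 9.86% (interval 8.78 to 11.1%), which overlaps the away loops. With anchors of 10 kb only, the share was 7.33% for away loops, 8.06% for those CRE loops and 17.4% for structural loops. By the number of anchors with the letters, away loops had a median mid-G1 change of -0.12 (no anchor, 916 loops), -0.16 (1 anchor, 183 loops) and -0.26 (both, 17 loops). The SD over chromosomes for all away loops was 0.08, and the last value rests on few loops. The difference was not tested. A match of letters is not a bound site.

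Among loops called only with auxin, 5 were named for the largest rise held at all 3 post-mitotic stages, which is likewise a description. The loop from an exon of Wipi2, an autophagy gene, to the start of Tnrc18 at chr5:143570001-143580000 had 3.24, 2.38, 2.47 and 2.52 without auxin and 2.81, 3.42, 4.12 and 4.01 with it. The loop from the starts of Cdkl3 and Ube2b to an exon of Ppp2ca, a phosphatase gene, had 0.916, 1.13, 1.36 and 1.23 against 1.08, 1.59, 1.93 and 1.82. The loop from Trappc8 to Rnf138 had 0.816, 1.25, 1.38 and 1.02 against 0.970, 1.66, 1.84 and 1.82. In these 3 and the 2 that follow, the treated value was the higher one at each post-mitotic stage, for which they were named. The other 2 joined the start of Birc2, an inhibitor of apoptosis, to an exon of Yap1, a transcriptional co-activator, and Acsf3 to Cdh15. The Birc2 loop was between 0.606 and 1.01 over the 8 maps and the Acsf3 loop between 0.614 and 1.25. The first was above the local expectation of 1 in mid-G1 with auxin alone, and the second in untreated prometaphase and in ana/telophase and early-G1 with auxin. The log2 changes in mid-G1 of the 5 lay between 0.57 and 0.83.

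**Figure D5:**
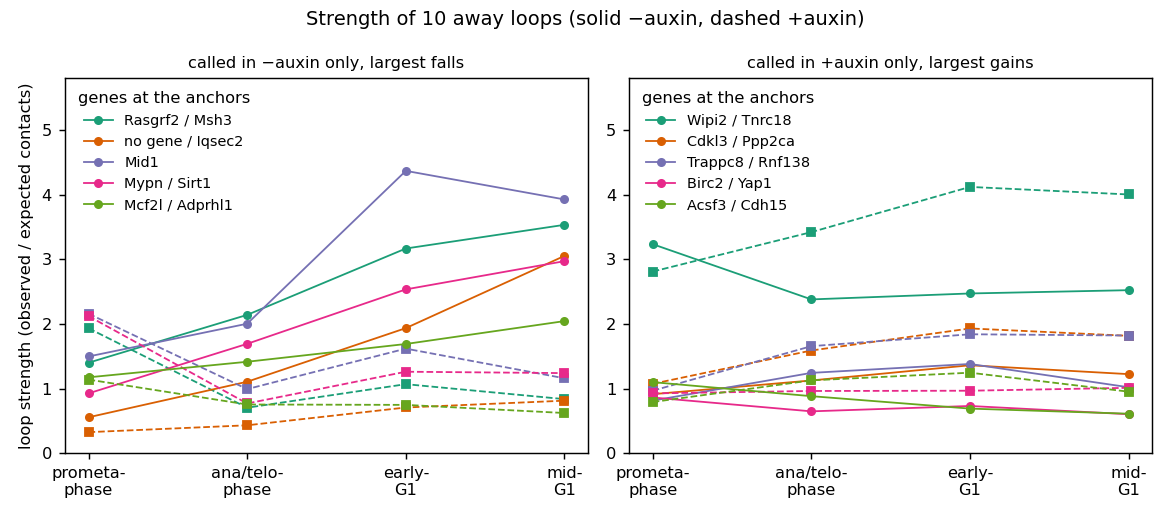
Strength (observed over locally expected contacts, y axis) by stage (x axis) of the 5 away loops called without auxin only that fell most (left) and the 5 called with auxin only that gained most (right), with solid lines for untreated and dashed lines for auxin-treated cells and the genes at both anchors in the key. On the left untreated strength climbed to 2.05 to 3.93 in mid-G1 while treated strength was 0.625 to 1.24.

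The away loops were up to 2000 kb long with a median of 220 kb (quartiles 110 and 400 kb), like all loops (median 220 kb). The 3 longest were not alike. A 2000 kb loop from Etnk1 to the starts of Casc1 and Lyrm5 on chromosome 6 had 0.918, 1.81, 3.06 and 3.46 without auxin and 1.07, 1.68, 1.87 and 3.77 with it, lower in early-G1 and level in mid-G1. A 2000 kb loop from Cps1 on chromosome 1 had 1.09, 1.16, 1.88 and 2.68 against 1.06, 1.07, 1.29 and 1.02. A 1975 kb loop from Hnrnph1 and Rufy1 to Vdac1 on chromosome 11 had 0.913, 1.10, 1.96 and 2.06 against 1.17, 1.504, 2.02 and 1.82. By size class the median mid-G1 change was -0.07 up to 100 kb and from 100 to 200 kb, -0.18 from 200 to 500 kb, -0.24 from 500 to 1000 kb and -0.06 above (72 loops).

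The rule set the away anchors apart from CTCF loop anchors, so their place among CTCF loops is given as a description. Inside a structural or dual-function loop lay 37.5% of them (interval 34.8 to 40.4%), and 26.3% (interval 23.8 to 29.0%) were crossed by one, with 1 of its anchors inside and the other outside, against 61.0% and 60.8% of all loops. With an anchor distance of 50 kb in the rule the crossed share was 9.34%. Neither held for 498 loops (44.6%), against 14.1% of all loops. Call classes differed by position. Of the loops that lay inside only, 11.1% had been called with auxin only, of those that were neither 16.1%, of those crossed only 29.1% and of those both inside and crossed 31.6%. Loops that were neither made up 76 of the 109 with shared sequence and 63 of the 107 strong in prometaphase.

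Domain boundaries, where contacts between neighbouring domains are few, lay at a smaller share of away loops than of structural loops, which the rule partly fixes since boundaries often lie at CTCF loop anchors. A boundary lay within 20 kb of an anchor in 26.3% of away loops (interval 23.8 to 29.0%), against 63.3% of structural loops and 52.8% of all loops. The CRE loops away from CTCF loop anchors had 33.8% (interval 31.3 to 36.4%). The 22 away loops with a boundary at both anchors reached a median of 2.14 by mid-G1 without auxin and 1.54 with it, with a median change of -0.58, against -0.11 in the 822 loops with none. Of these 22, 21 (95.5%) had been called in untreated cells only, against 66.0% of all away loops and 71.1% of all loops. The 224 boundaries near an away anchor and no CTCF loop anchor had a median mid-G1 strength, the difference in insulation score, of 0.620 without auxin and 0.494 with it. Those near a CTCF loop anchor (2460) had 0.886 and 0.523. The median log2 change was -0.27 (SD over chromosomes 0.27) for the former and -0.75 (SD 0.12) for the latter. The 3692 boundaries near neither kind of anchor had -0.28 (SD 0.08), close to the value near away anchors. Of the 224, 99 (44.2%) belonged to the study's boundary cluster 3, against 27.1% of all boundaries.

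Gene starts were few at the anchors of all uncategorised loops, which the class partly fixes since an active regulatory element marked at most 1 anchor. A protein-coding gene start lay in 335 of 2232 anchors (15.0%, interval 13.6 to 16.6%), against 17.3% and 15.9% in uncategorised loops with 1 and 2 CTCF loop anchors, 17.8% of structural, 53.4% of CRE and 33.5% of all loop anchors. Wider bins hold more starts, and with anchors of 10 kb only the shares were 11.96% (interval 10.4 to 13.7%) for away loops, 14.0% and 14.3% for uncategorised loops with 1 and 2 CTCF loop anchors, and 29.8% for all loops. At 814 loops neither anchor had one, at 269 loops 1 had, and at 33 loops both. A CRE loop anchor lay within 20 kb of 1 anchor in 286 loops and of both in 57, so that 69.3% (interval 66.5 to 71.9%) had none, against 61.5% of structural loops. The median GC content of away anchors was 42.8%, with 8.84 CpG sites per kb, below the 45.9% and 11.6 of structural and the 45.1% and 13.9 of CRE loop anchors. The anchors of CRE loops away from CTCF loop anchors had a median GC content of 43.8% (quartiles 41.3 and 46.3%, against 39.8 and 45.8% in away anchors), with 12.7 CpG sites per kb. The median density of GATC, the site of the enzyme that cut the DNA, was 2.50 per kb in away, structural and all loop anchors alike. It was 2.44 in CRE loop anchors and 2.40 in those of CRE loops away from CTCF loop anchors. Both anchors lay over the same protein-coding gene in 120 away loops (10.8%, interval 9.07 to 12.7%), against 9.21% of uncategorised loops with 1 CTCF loop anchor (interval 7.91 to 10.7%), which overlaps, 6.37% of those with 2 and 4.65% of structural loops. These loops within a gene had a median size of 90 kb and mid-G1 medians of 1.44 without and 1.24 with auxin, near the 1.39 and 1.29 of all away loops up to 100 kb.

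Gene groups at the anchors were small. A start of a gene of clustered families (olfactory and vomeronasal receptors, keratins, defensins, serpins, cytochromes P450 and others) lay at 23 away loops (2.06%, against 0.574% of all loops), with a median mid-G1 change of -0.07. The strongest after the Vmn2r39 loop joined Vmn1r169 to Vmn1r175 (2.54, 3.39, 3.07 and 3.11 without auxin, 2.34, 2.54, 3.86 and 3.19 with it). Zinc finger genes, many of which repress transposons, lay at 9 away loops (0.806%, against 1.45% of all loops), with a median change of 0.03. The strongest ended at Zfp934, where 18.9% of the upstream anchor's words recurred, and had 3.47, 3.47, 3.66 and 4.04 without auxin and 2.96, 1.82, 4.18 and 3.54 with it. Developmental transcription factors lay at 5 (0.448%, against 0.599%): Foxd1, Tbx4, Dlx4, Lhx4 and Foxp4, all called in untreated cells only, as were 66.0% of away loops and 71.1% of all loops, with a median change of -0.14. The Tbx4 loop, at a gene for hindlimb patterning, had 0.758, 1.12, 1.403 and 1.80 without auxin and 0.516, 0.802, 1.07 and 1.20 with it, so the log2 change was already -0.55 in prometaphase and -0.58 in mid-G1. Genes of synapses, adhesion and channels lay at 6 loops (0.538%, against 0.544%), among them Sema5b, Kcnu1, Kcns2, Dlg1 and Lrp5, with a median change of -0.13. Of 28 erythroid and haematopoietic genes only Etv6, a repressor needed for blood stem cells, had its start in an away anchor, in a 90 kb loop within the gene whose mid-G1 change was 0.01. Such genes lay at 0.324% of all loops and 0.0896% of away loops.

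After prometaphase the median change with auxin was lower for away loops on the X chromosome than for those on autosomes. The 40 loops on X had median strengths of 1.07, 1.45, 1.83 and 1.89 without auxin and 0.972, 1.21, 1.35 and 1.30 with it. In mid-G1 autosomes had 1.66 and 1.46, so X lay above them without auxin and below them with it. The median changes were -0.01, -0.18, -0.33 and -0.39 over the 4 stages, and the mid-G1 value lay below all 19 autosomes. None of the 40 shared sequence, and 3 were strong in prometaphase. In untreated cells only, 29 of the 40 had been called, as were 66.0% of all away loops and 71.1% of all loops. Structural loops on X also had a lower median (-1.15), as had uncategorised loops with 1 CTCF loop anchor (-0.51, 14 loops), whereas CRE loops had -0.01. Uncategorised loops with 2 CTCF loop anchors had -0.75 on X (8 loops), which was not below all autosomes (-0.87 on chromosome 8). On autosomes the away median in mid-G1 was -0.12.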

How the data were processed

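Loop and boundary tables of 18 Hi-C libraries were used, in 8 groups of treatment and stage; 4 libraries of cells with triptolide were not used here. The authors aligned reads to mm9 with Bowtie2 within HiC-Pro, removed duplicates, merged the replicates of a group and called loops at 10 and 25 kb with a modified HICCUPS. The deposited loop strengths are a ratio, contacts observed over those expected from nearby pixels, averaged over the summit and the pixels around it, 1 per group. The deposited boundary strengths are an insulation signal, the difference between a boundary and its surroundings. The depth of single values is not given in the sources used here.

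The away loops were found from anchor midpoints, with a limit of 20 kb. The members, gene lists and limits were chosen with earlier results of these data known. Log2 changes are auxin-treated over untreated strengths, with no pseudocount, so 1 loop with a strength of 0 was left out in mid-G1. Over loops there are medians, SDs over chromosomes with at least 10 loops, and 95% Wilson intervals. Values of single replicates were not analysed here, so treatments were not tested. Anchor sequence, genes and words of 50 bases came from the NCBIM37 assembly, which is mm9, with coordinates counted from 1. Protein-coding gene starts were counted within summit bins, and boundaries and CRE loop anchors within 20 kb of an anchor midpoint.

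The loops named were 5 each of the strongest without auxin, the strongest throughout, the most raised of those called with auxin only and the most lowered of those called in untreated cells only, the 3 longest, and up to 5 per gene list, passing over a loop with an anchor within 50 kb of one listed. The neighbourhoods described and the loops strong in prometaphase or sharing sequence were chosen after their values were seen. Scripts (Python 3.11.15, numpy 2.4.6, pandas 2.3.3, scipy 1.17.1, matplotlib 3.10.9) were tested on simulated data, with 10 of 10 checks passed.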

Additional observations from a re-analysis of the deposited data

How the results depend on the processing

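The 20 results on the away loops were recomputed under other settings, which gave 227 values. Of these, 165 stayed within the spread of the reported value, 59 left it, and 3 more left it and changed sign. A change of sign within the spread was not counted. No paired analysis was possible because the loop and boundary tables used here hold 1 merged value per group, and for the same reason leaving out a replicate was not run. Values of single replicates were not analysed here. The cause of these shifts was not tested.

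Centred on the median of all loops, the median change was 0.25 in mid-G1, 0.22 in early-G1 and 0.15 in ana/telophase in place of values below 0, and 4.93% of away loops were lower and 20.6% higher by at least 0.5. A pseudocount of 0.5 gave rises of 0.40 without and 0.30 with auxin, and 9.05% lower and 1.70% higher. A limit of 1 on the log2 scale gave 3.50% and 0.269%.

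With an anchor distance of 10 kb (1580 loops), 68.9% were called in untreated cells only, 18.4% were lower by at least 0.5, 33.7% had a CRE loop anchor nearby, 45.4% lay inside and 33.4% were crossed by a CTCF loop, 30.5% had a boundary, 7.22% shared sequence and 7.34% were strong in prometaphase. With 50 kb (632 loops), 60.8% were called in untreated cells only and 21.4% in both treatments, the difference from loops with 2 CTCF loop anchors was 0.34, 13.4% of anchors had a gene start, 28.2% lay inside, 9.34% were crossed, 23.7% had a boundary, 15.5% shared sequence and 13.8% were strong in prometaphase.

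With 10 kb summits only, 18.5% were called in both treatments and 15.8% with auxin only, 11.96% of anchors had a gene start, 44.5% lay inside, 18.1% were crossed and 14.7% were strong in prometaphase. With loops of 100 kb or more, 32.2% lay inside and 32.2% were crossed. With structural loops alone as CTCF loops, these were 27.7% and 22.8%. Gene starts within 30 kb of an anchor midpoint were at 28.9% of anchors, CRE loop anchors within 10 kb at 22.8% of loops, and boundaries within 10 kb at 14.1%.

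Presence by a strength of at least 1.5 gave 26.5% in untreated cells only, 67.1% in both and 6.42% with auxin only. Without loops of prometaphase strength 1.5 or more in either treatment, 73.1% were called in untreated cells only and 8.96% in both, 1.77% were higher by at least 0.5, 42.2% lay inside and 5.19% shared sequence.

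The settings that follow were added after seeing the data, as was every alternative above for sharing sequence and for strength in prometaphase. Without loops that share sequence, 69.7% were called in untreated cells only and 12.5% in both, 33.6% had a CRE loop anchor nearby and 7.15% were strong in prometaphase. Without loops strong in prometaphase, 70.1% were called in untreated cells only, 11.6% in both, and 7.33% shared sequence. Words of 30 bases gave 14.5% that share sequence (3.16% of other loops), of 100 bases 5.65% (0.262%), a limit of 0.1% of words 19.7% (7.95%) and of 5% 4.93% (0.144%). A prometaphase limit of 1.5 gave 15.0% (2.45% of other loops) and of 3 gave 4.12% (0.236%).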
